A study of Arabidopsis thaliana with 33 samples.

Results

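FLOWERING LOCUS C (FLC) and its 5 closest relatives, FLOWERING LOCUS M (FLM), MAF2, MAF3, MAF4 and MAF5, form a clade of MADS-box transcription factors that delay flowering in *Arabidopsis thaliana*. They were chosen by gene identifier (AT5G10140, AT1G77080, AT5G65050, AT5G65060, AT5G65070 and AT5G65080) and are 6 of the 32823 genes in the RNA tables and 6 of the 32833 in the histone acetylation tables. The tables list FLM under its other name MAF1 and MAF2 as AGL31. All 6 genes were measured in every table and passed the authors' filter for testing in each of the 4 RNA comparisons.

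FLC binds the florigen gene FT and the flowering activator SOC1 and represses them, together with the MADS-box partner SVP. FLC transcription is kept low by the autonomous pathway, a group of RNA-processing and chromatin regulators, and after cold by Polycomb proteins. The other clade members also repress flowering and interact with SVP, and FLM and MAF2 are known for splice forms that respond to temperature. Acetylation of histone H3 marks the start regions of transcribed genes, and histone deacetylases such as HDA6 remove it. Col-0, the wild type used here, lacks a functional FRIGIDA, the main activator of FLC, and so makes little FLC RNA.

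RNA was sequenced from untreated seedlings of 5 genotypes: wild-type Col-0 (WT), the T-DNA insertion lines hhp1 and hda6, the mbd1/2/4 triple mutant (mbd124) and the sant1234-null quadruple mutant. HHP1 is, from the series title and its gene name, taken here as the domesticated Harbinger transposase that forms a complex with HDA6, and the labels name no alleles. Seedlings were 12 days old, grown on 1/2 MS plates in long days (16 h light, 24 °C) with 8 h nights at 22 °C, with 3 biological replicates per genotype. Chromatin immunoprecipitation with an antibody against acetylated histone H3 (H3ac) covered WT, sant1234-null and hda6 with 3 replicates each, beside 9 input libraries. The deposited tables give 1 value per genotype, so no spread between replicates can be shown, and calls against WT are those of the authors' tests.

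The mutants are named as labelled. HDA6 RNA was 17.0 FPKM (fragments normalised to gene length and sequencing depth) in WT and 18.8 in the hda6 line, where the authors' deposited table gave an adjusted p of 0.735, so the RNA level does not check that label. In mbd124, MBD1 was at 0.0476 FPKM against 15.5 in WT, MBD4 at 0.208 against 21.8 and MBD2 at 6.45 against 17.5. The authors' test called MBD2 (adjusted p = 0.000861) but not MBD1 (0.619) or MBD4 (0.177). A gene without a call can thus still have changed strongly. Leaf and root markers were present, as the seedling label says: RBCS1A lay between 4642 and 6260 FPKM and PYK10 between 1642 and 1984 FPKM over all genotypes, while the flower organ genes AP3, AG and SEP1 reached at most 0.205 FPKM and the petal and stamen gene PI reached 3.14 FPKM. Some markers moved. Of the leaf genes, RBCS1B was lower in hhp1 and hda6 and LHCB2.1 in mbd124 and sant1234-null, and of the root genes, LRX1 was lower in hhp1 and mbd124. The root iron transporter gene IRT1 was higher in sant1234-null (log2 change 0.97) and hda6 (0.87), PI in hhp1 (1.56) and sant1234-null (2.47), and the seed storage gene CRA1 in mbd124 (from 0.409 to 2.15 FPKM) and hda6 (from 0.402 to 0.988 FPKM). The seed genes OLEO1 and SESA1 reached at most 0.171 FPKM. The leaf gene CAB1 is listed at 0 in WT with a mark for too much data, which is a failed estimate. H3ac reads summed over all genes came to 69959151 in WT, 78316244 in sant1234-null and 68093284 in hda6, and the depth of the RNA libraries is unknown.

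FLC lies alone on the minus strand at chr5:3173382-3179448 (TAIR10), and FLM lies alone on the plus strand at chr1:28955483-28960234. MAF2 (chr5:25982254-25986435), MAF3 (chr5:25987309-25991412), MAF4 (chr5:25992193-25996202) and MAF5 (chr5:25997504-26002619) follow each other on the plus strand over 20366 bp. The gaps between them are 873, 780 and 1301 bp. The members of this array are not interchangeable in sequence: over the aligned coding sequence MAF2 and MAF3 were 93.6% identical, MAF4 and MAF5 69.2%, and FLC and MAF4 61.6%. Gene coordinates of the deposited tables matched those of the reference annotation TAIR10.1 for 32531 of 32547 shared genes, so sequences were read from that build.

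The first coding exon carries the MADS domain that binds DNA, and it lies inside the H3ac peak at the 5′ end of each of the 4 genes shown, so it identifies the stretch of chromatin that was measured. Its last 185 coding bases are given for FLC (chr5:3179155-3179339, minus strand), MAF3 (chr5:25987527-25987711), MAF4 (chr5:25992310-25992494) and MAF5 (chr5:25997671-25997855), with capitals at bases that differ from MAF3. MAF5 has 21 coding bases before this stretch.
MAF3: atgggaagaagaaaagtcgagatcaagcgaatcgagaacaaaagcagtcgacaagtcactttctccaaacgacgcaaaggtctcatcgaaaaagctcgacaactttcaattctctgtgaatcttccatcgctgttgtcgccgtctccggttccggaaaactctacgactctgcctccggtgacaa
FLC: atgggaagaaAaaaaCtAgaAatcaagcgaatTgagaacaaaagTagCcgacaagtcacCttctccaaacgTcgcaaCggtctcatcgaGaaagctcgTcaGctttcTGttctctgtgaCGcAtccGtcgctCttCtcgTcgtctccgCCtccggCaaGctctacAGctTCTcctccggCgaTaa
MAF4: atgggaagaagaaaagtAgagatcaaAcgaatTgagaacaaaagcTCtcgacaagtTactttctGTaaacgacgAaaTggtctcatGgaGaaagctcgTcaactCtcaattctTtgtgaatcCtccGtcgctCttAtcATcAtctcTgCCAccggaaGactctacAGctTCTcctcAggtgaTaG
MAF5: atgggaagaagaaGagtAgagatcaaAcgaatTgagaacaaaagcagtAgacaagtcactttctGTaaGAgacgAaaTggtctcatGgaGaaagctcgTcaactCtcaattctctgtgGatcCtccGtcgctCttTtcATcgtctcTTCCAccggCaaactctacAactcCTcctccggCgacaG
FLC differed from MAF3 at 33 bases, MAF4 at 35 and MAF5 at 33. In this exon MAF4 and MAF5 were 89.7% identical to each other.

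The 250 bases before the gene start are shown for the 4 array genes, because the genes that rose and those that did not lie side by side. Capitals mark runs of 12 or more bases that MAF4 shares with MAF5, or MAF2 with MAF3. The windows are chr5:25982004-25982253, chr5:25987059-25987308, chr5:25991943-25992192 and chr5:25997254-25997503, all on the plus strand of TAIR10.1.
MAF2: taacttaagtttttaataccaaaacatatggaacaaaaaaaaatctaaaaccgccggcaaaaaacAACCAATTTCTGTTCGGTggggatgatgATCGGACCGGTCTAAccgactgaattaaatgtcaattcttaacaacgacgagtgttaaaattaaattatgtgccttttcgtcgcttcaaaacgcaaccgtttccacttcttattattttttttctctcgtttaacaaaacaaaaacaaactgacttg
MAF3: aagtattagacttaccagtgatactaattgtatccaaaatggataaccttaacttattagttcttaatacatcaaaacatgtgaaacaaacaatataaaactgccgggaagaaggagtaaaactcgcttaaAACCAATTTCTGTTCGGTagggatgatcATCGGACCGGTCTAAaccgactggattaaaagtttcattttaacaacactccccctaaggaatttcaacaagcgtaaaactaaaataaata
MAF4: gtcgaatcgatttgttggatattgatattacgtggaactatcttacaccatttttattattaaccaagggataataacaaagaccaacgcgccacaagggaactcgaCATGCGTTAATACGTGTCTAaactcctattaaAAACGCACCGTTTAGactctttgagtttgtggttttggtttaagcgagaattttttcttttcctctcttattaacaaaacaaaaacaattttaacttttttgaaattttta
MAF5: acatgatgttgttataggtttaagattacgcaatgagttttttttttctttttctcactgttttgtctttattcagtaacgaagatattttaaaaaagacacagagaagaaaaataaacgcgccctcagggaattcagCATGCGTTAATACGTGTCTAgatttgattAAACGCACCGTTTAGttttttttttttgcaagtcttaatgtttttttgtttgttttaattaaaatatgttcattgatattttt
MAF4 and MAF5 share a run of 20 bases and one of 15 bases, and each run was found in 2 of 27443 such windows of protein-coding genes, searched on both strands. MAF2 and MAF3 share a run of 18 bases, found in 3 windows including that of FLM, and one of 15 bases. Sharing also crossed these pairs: MAF2, which was not called, and MAF4, which rose, share a run of 18 bases that is not capitalised, and MAF2 and FLM share one of 35 bases. FLC shares no run of 12 bases with any other member. These runs were picked after the sequences were seen and describe the windows only.

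In WT, the clade split into abundant and scarce members. Per length, MAF2 stood highest at 38.3 FPKM, with FLM at 31.6 FPKM and MAF3 at 8.79 FPKM (medians of the 4 separately scaled tables). MAF5 followed at 3.15 FPKM, FLC at 1.42 FPKM and MAF4 at 1.39 FPKM. The values of FLC and MAF4 differ by less than those of any other neighbours in this order, and without replicate values their order could not be tested. Each WT value differed little between tables, with FLC between 1.39 and 1.42 FPKM and MAF2 between 37.6 and 38.4 FPKM.

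The 3 scarce genes are the members whose RNA rose. In hhp1, 1 of the 6 genes was called higher and 0 lower (adjusted p under 0.05), against 2.88% of all tested genes called higher. In mbd124, again 1 was higher and 0 lower, against 4.85% higher in the background. In sant1234-null, 3 were higher and 0 lower, against 9.33%, and in hda6, 3 were higher and 0 lower, against 7.25%. In bulk seedlings, more cells making an RNA and more RNA per cell cannot be told apart. The root marker IRT1 also rose in sant1234-null and hda6, where PYK10 and LRX1 were not called, and the part of cell makeup in the clade's changes was not tested.

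**Figure D1:**
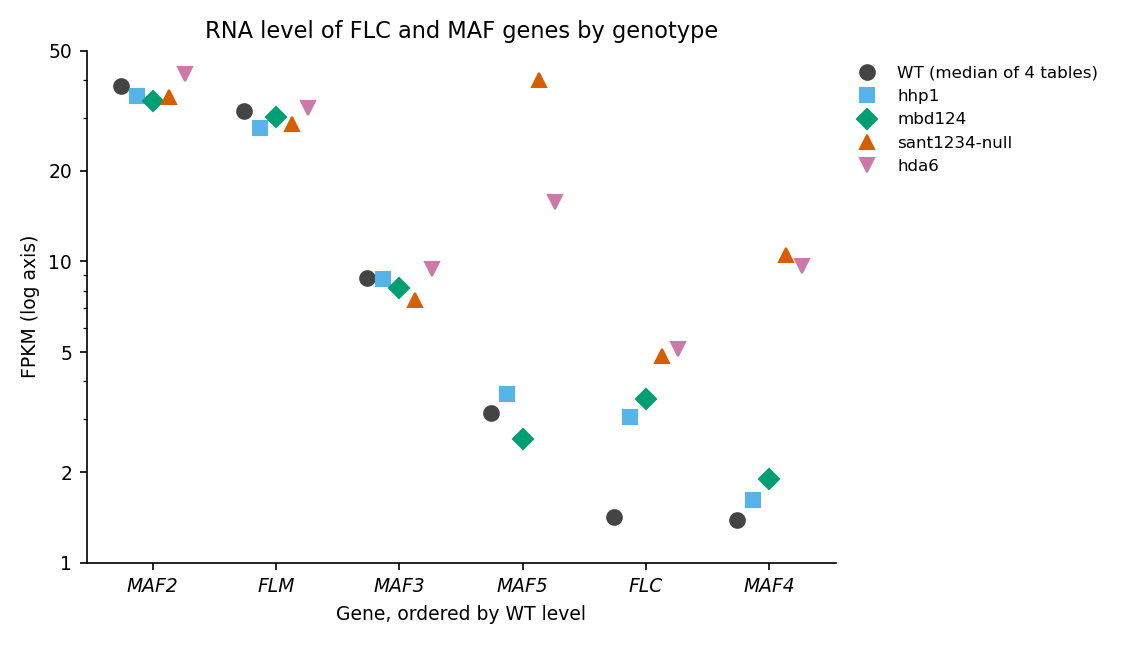
RNA level (FPKM, log axis) of the 6 genes in WT and 4 mutants, 1 deposited value per genotype with no replicate spread; WT is the median of its 4 tables and mutants are on the scale of their own table. MAF2, FLM and MAF3 stay near their WT level, FLC is above WT in every mutant, and MAF4 and MAF5 stand well above WT in sant1234-null and hda6.

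FLC, the best studied flowering repressor of the clade, was higher in all 4 mutants. Its level was 3.04 FPKM in hhp1, 3.50 in mbd124, 4.85 in sant1234-null and 5.11 in hda6, against 1.39 to 1.42 in WT. These are 2.14, 2.47, 3.41 and 3.67 times the WT value of the same table. The log2 changes were 1.10 ± 0.33 (SE), 1.31 ± 0.34, 1.77 ± 0.33 and 1.88 ± 0.34 in that order, where the standard errors were derived from the deposited statistics. Adjusted p-values in the authors' deposited table of each mutant were 0.0351, 0.00626, 0.000723 and 0.000899, and the last 2 are the smallest values those tables hold. Being called higher in all 4 mutants was a pattern of 122 of the 20674 genes tested in every table (0.590%).

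The FLC increase was smallest in hhp1, but no pair of mutants differed in FLC by the test of the difference. Between hhp1 and hda6 the log2 changes differed by -0.78 (95% interval -1.69 to 0.14), and between sant1234-null and hda6 by -0.10 (-1.02 to 0.81). These intervals leave room for a difference of either a small or a sizeable amount. All 4 comparisons use the same WT libraries and are therefore not independent of each other.

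MAF4, a repressor encoded in the array, rose in 2 of the 4 mutants. MAF4 was at 1.62 FPKM in hhp1 and 1.90 in mbd124, against WT values of 1.36 to 1.39. It was at 10.5 FPKM in sant1234-null and 9.63 in hda6. The last 2 values are 7.57 and 7.07 times WT, with log2 changes of 2.92 ± 0.29 (SE) and 2.82 ± 0.30. The authors' deposited table gave adjusted p-values of 0.000723 for sant1234-null and 0.000899 for hda6, but 0.865 for hhp1 and 0.505 for mbd124. The MAF4 log2 change was 0.22 (95% interval -0.45 to 0.89) in hhp1 and 0.45 (-0.23 to 1.13) in mbd124. The missing calls thus do not show an unchanged level.

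MAF5, the last gene of the array, had the largest change of the clade in sant1234-null, while in hda6 MAF4 changed more and in hhp1 and mbd124 FLC did. Its level was 3.64 FPKM in hhp1, 2.57 in mbd124, 39.9 in sant1234-null and 15.7 in hda6, against 3.09 to 3.16 in WT. The 2 raised values are 12.6 and 5.09 times WT, with log2 changes of 3.66 ± 0.45 (SE) and 2.35 ± 0.46. Adjusted p-values in the authors' deposited table were 0.000723 and 0.000899 for these, and 0.949 and 0.891 for hhp1 and mbd124. The 95% intervals of the MAF5 log2 change were wide there, -0.94 to 1.35 in hhp1 and -1.44 to 0.86 in mbd124. The pattern of MAF4 and MAF5, higher in sant1234-null and hda6 with no call in hhp1 and mbd124, was that of 382 of 20674 genes (1.85%).

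The difference between mutants was tested itself for all 6 genes and 6 pairs of mutants, 36 comparisons, by a normal test on the deposited changes and their derived errors, with the adjustment over all genes tested in both tables. There were 7 calls at an adjusted p under 0.05, 4 for MAF4 and 3 for MAF5. MAF4 rose less in hhp1 than in sant1234-null, with a difference in log2 change of -2.70 (95% interval -3.58 to -1.82), and less than in hda6, with -2.60 (-3.49 to -1.71). It also rose less in mbd124 than in sant1234-null, by -2.47 (-3.36 to -1.58), and than in hda6, by -2.37 (-3.27 to -1.47). In each of the 4 contrasts MAF4 was thus nearer to WT in hhp1 or mbd124.

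MAF5 changed less in hhp1 than in sant1234-null, with a difference of -3.45 (95% interval -4.90 to -2.01). Against mbd124, its change was larger in sant1234-null (-3.95, -5.40 to -2.50) and in hda6 (-2.64, -4.11 to -1.17). The share of all genes called was 4.10% for hhp1 against sant1234-null, 4.20% for hhp1 against hda6, 2.99% for mbd124 against sant1234-null and 4.48% for mbd124 against hda6. MAF5 in hhp1 against hda6 was not called after adjustment (-2.14, 95% interval -3.60 to -0.68).

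Between sant1234-null and hda6, the MAF5 changes differed by 1.31 (95% interval 0.05 to 2.58) and were not called after adjustment, and those of MAF4 differed by 0.10 (-0.72 to 0.92). No gene of the clade was called between those mutants, against 1.72% of all genes, or between hhp1 and mbd124, against 5.13%. Only 3 of the 7 calls remain when standard errors are taken from the deposited p-values alone, which stop at a smallest value and so give errors that are too large for strong changes.

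**Figure D2:**
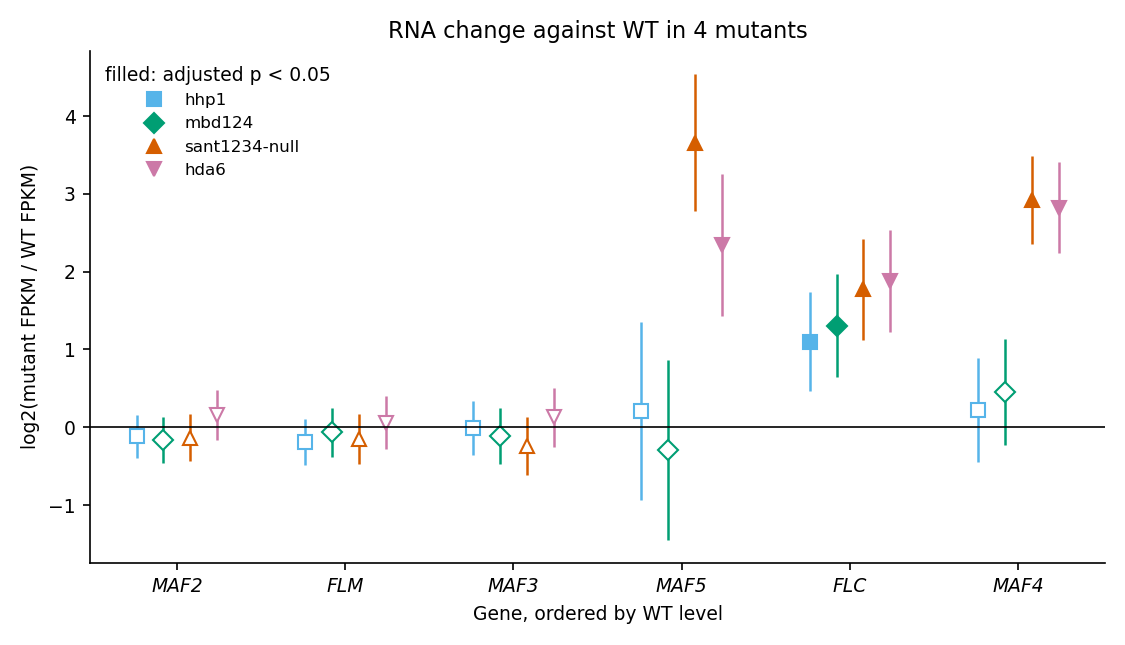
log2 ratio of mutant to WT FPKM for the 6 genes in 4 mutants, with 95% intervals derived from the deposited statistics; filled symbols have an adjusted p under 0.05 in the authors' tables. The FLC symbols are filled in all 4 mutants, MAF4 and MAF5 only in sant1234-null and hda6, and the intervals of MAF2, FLM and MAF3 all include 0.

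The abundant members were not called in any mutant. FLM, the second most abundant gene in WT, was at 27.7 FPKM in hhp1, 30.2 in mbd124, 28.5 in sant1234-null and 32.3 in hda6, against 31.0 to 31.7 in WT. MAF2, known for repressing flowering at low temperature, was at 35.3, 34.1, 35.0 and 41.9 FPKM in the same order, against 37.6 to 38.4. MAF3, its neighbour and closest relative, was at 8.77, 8.15, 7.46 and 9.41 FPKM, against 8.63 to 8.82. Their log2 changes lay between -0.24 and 0.16, and in the authors' deposited table of each mutant the lowest adjusted p among the 3 genes was 0.635 in hhp1, 0.655 in mbd124, 0.513 in sant1234-null and 0.709 in hda6. Being called in no mutant was the state of 76.5% of genes. FPKM sums splice forms, so changes among the splice forms of FLM and MAF2 were not measured here.

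The changes altered the makeup of the clade's RNA. The summed level of the 6 genes was 84.9 FPKM in WT and 126 FPKM in sant1234-null, and 83.1 FPKM in WT and 114 FPKM in hda6. In hhp1 it was 80.1 FPKM against 84.7 in WT, and in mbd124 80.5 FPKM against 84.5. MAF5, at 0.0823 times the level of MAF2 in WT, stood at 1.14 times MAF2 in sant1234-null and was there the most abundant member by level per length. In hda6 MAF5 reached 0.376 times MAF2 and ranked after MAF2 and FLM. MAF4, which shared the lowest WT level with FLC, stood at 1.41 times MAF3 in sant1234-null and 1.02 times in hda6. FLC then had the lowest value. The order of close values was not tested.

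Median log2 changes of the 6 genes were 0.10 in hhp1, -0.09 in mbd124, 0.82 in sant1234-null and 1.02 in hda6, where the medians of all tested genes were -0.00, 0.01, 0.00 and 0.02. Reads could be assigned to these genes without much sharing: of 50-base stretches of their exons, 0 for FLC, MAF2, MAF4 and MAF5 occurred elsewhere in the genome, and 0.280% for FLM and 2.46% for MAF3. FLC overlaps an antisense gene, AT5G01675, in the region of the antisense RNA COOLAIR. The sources used here do not say whether counting used strand, so sense and antisense reads at FLC cannot be told apart. AT5G01675 had 0.578 FPKM in WT and log2 changes of -0.75, -0.99, 0.49 and 0.29 in hhp1, mbd124, sant1234-null and hda6, none of them called.

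H3ac was measured in WT, sant1234-null and hda6, and over the gene it was above WT for FLC, MAF4 and MAF5 and below WT for FLM, MAF2 and MAF3 in both mutants. Over the whole gene in WT, all 6 genes carried less H3ac than the median gene at 10.7 RPKM (reads normalised to gene length and mapped reads), from 3.73 RPKM for MAF5 to 7.61 RPKM for MAF2. At a ratio of at least 1.5-fold, which is a description without a test, 2 of 6 genes were higher and 0 lower in sant1234-null, against 15.6% of all genes higher and 3.74% lower. In hda6, 2 were higher and 0 lower, against 13.0% and 3.03%. The intervals given with these ratios cover counting error only.

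MAF4 had 1082 H3ac reads in WT, 2331 in sant1234-null and 1857 in hda6, or 3.85, 7.25 and 6.54 RPKM. Its ratio to WT was 1.88 (95% interval 1.75 to 2.03) in sant1234-null and 1.70 (1.58 to 1.83) in hda6. MAF5 had 1336, 2516 and 2100 reads, or 3.73, 6.14 and 5.80 RPKM, with ratios of 1.65 (1.54 to 1.76) and 1.56 (1.45 to 1.67). Both genes were thus above WT in each mutant by more than counting error.

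FLC had 2002, 3222 and 2911 reads, or 4.71, 6.63 and 6.78 RPKM, and ratios of 1.41 (1.33 to 1.49) and 1.44 (1.36 to 1.53), just under the 1.5-fold limit. FLM had ratios of 0.887 and 0.873, MAF2 of 0.838 and 0.816, and MAF3 of 0.860 and 0.879 in sant1234-null and hda6. These 3 genes had a lower RPKM than WT in both mutants, while the median gene shifted by a log2 ratio of 0.09 in each. In both mutants the clade genes whose RNA rose were those above WT in H3ac. The same 3 genes had the lowest H3ac of the clade in WT, at 3.73 to 4.71 RPKM with no input subtracted. Whether low WT signal shaped their ratios was not tested.

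**Figure D3:**
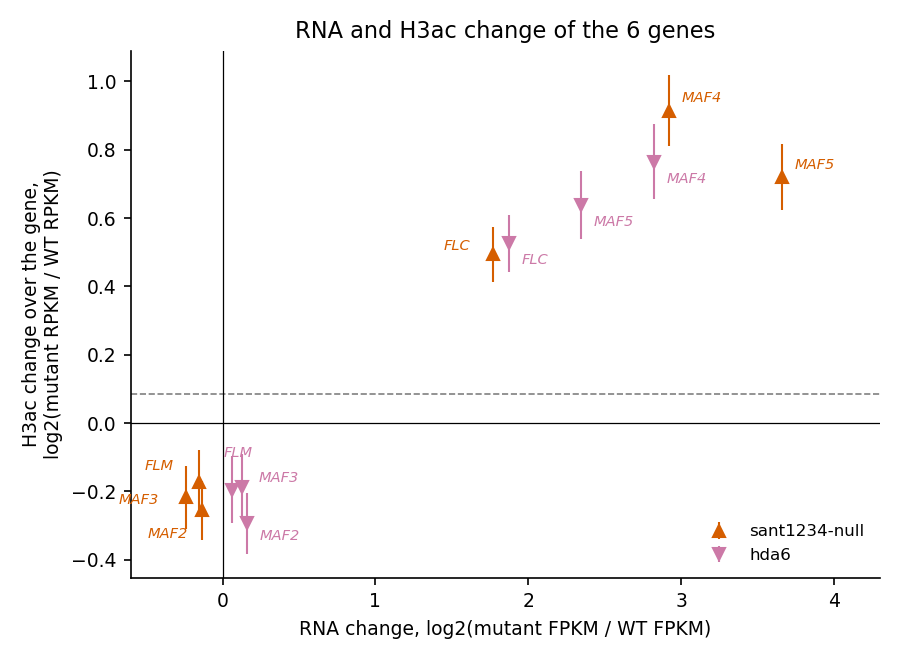
H3ac change over the gene (log2 ratio of RPKM, bars are 95% counting intervals) against RNA change (log2 ratio of FPKM) for the 6 genes in sant1234-null and hda6; the dashed line is the median H3ac change of all genes, 0.09. FLC, MAF4 and MAF5 lie at the upper right in both mutants, and FLM, MAF2 and MAF3 lie below 0 in H3ac with RNA changes near 0.

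Each gene had an H3ac peak close to its start, centred 230 to 354 bp from it in the sant1234-null table and 216 to 349 bp in the hda6 table. The hda6 table also held a peak near the 3′ end of FLC, centred 5695 bp from its start. In sant1234-null, 2 of 6 peaks were called higher (FDR under 0.05) and 0 lower, against 15.2% of all peaks higher and 12.9% lower (28.1% in all). In hda6, 1 of 7 was higher and 3 lower, against 5.29% higher and 22.5% lower (27.8% in all).

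The MAF4 peak (chr5:25992223-25992623 in the sant1234-null table) had no measured signal in WT and a measured signal in both mutants. WT is listed at a log2 concentration of 0 in both tables, so the deposited folds are not taken here as a size of change. The level was 6.40 in sant1234-null and 5.07 in hda6, below the medians of all peaks in these mutants, 6.66 and 6.12. The authors' deposited table gave an FDR of 2.32e-09 for sant1234-null and of 0.000723 for hda6. A WT value of 0 is held by 2.06% of all peaks in the sant1234-null table and 1.21% in the hda6 table. Of these peaks, 456 of 515 were called higher in sant1234-null and 223 of 301 in hda6, so a call is the usual outcome for a peak with such a WT value and adds little to it. Over the whole of MAF4, 1082 reads were counted in WT.

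The FLC peak at the 5′ end (chr5:3179007-3179407) rose from a log2 concentration of 4.09 in WT to 6.38 in sant1234-null, where the authors' deposited table gave a log2 fold of 1.46 and an FDR of 0.00755. In hda6 the 5′ peak was at 5.52 against 3.66 in WT and the 3′ peak at 5.08 against 2.80, and the authors' deposited table gave both a log2 fold of 0.51, with FDRs of 0.172 and 0.149. These folds are smaller than the differences of the log2 concentrations, 1.86 at the 5′ peak and 2.28 at the 3′ peak. In sant1234-null that difference was 2.29. Which measure better gives the size of the FLC change was not tested. MAF5 was at 5.82 against 4.20 in sant1234-null (FDR 0.149 in the authors' deposited table) and at 4.49 against 4.10 in hda6 (FDR 0.887). MAF5 thus had a higher read density over its length in both mutants without a called peak at its start.

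Peaks at the abundant genes started high and were lower in hda6. FLM was at a log2 concentration of 7.23 in WT and 5.92 in hda6, with a log2 fold of -1.03 and an FDR of 0.00205 in the authors' deposited table. MAF2 was at 7.71 and 6.58 (log2 fold -0.85, FDR 0.0115 in the authors' deposited table), and MAF3 at 7.51 and 6.51 (-0.81, FDR 0.00792). In sant1234-null the same peaks had log2 folds of -0.41, -0.46 and -0.54 in the authors' deposited table, with FDRs of 0.140, 0.0828 and 0.0670.

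The hda6 folds of all peaks have a median of -0.23, and 19.0% of all called peaks were higher. Relative to that median, tested again with errors derived from the deposited fold and p, 70.3% of called peaks were higher. The clade's calls were then MAF4 higher and FLM lower (-0.80), while MAF2 (-0.62) and MAF3 (-0.58) were not called. Both FLC peaks stood at 0.74 relative to the median and were not called. The deposited folds of FLC are smaller than its log2 concentration differences, and errors derived from such folds can be too small. The calls and shares relative to the median are therefore uncertain. The median over all peaks in sant1234-null was -0.02.

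**Figure D4:**
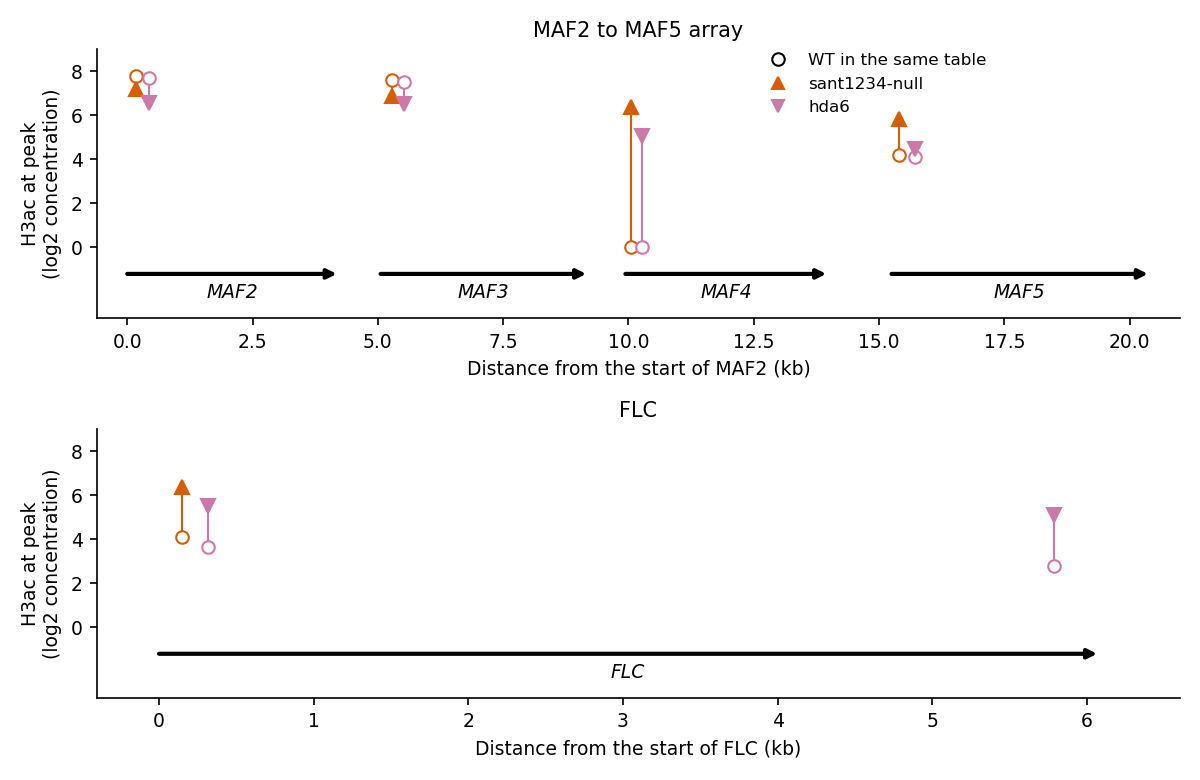
H3ac (log2 concentration, 1 value per genotype with no replicate spread) at peaks along the MAF2 to MAF5 array and along FLC, plotted against distance from the start of MAF2 or FLC in kb; arrows are genes, open circles WT, filled symbols the mutant, and the pair from each table is moved slightly sideways. At MAF4 the WT circles lie at 0 and the mutants at 6.40 and 5.07, while at MAF2 and MAF3 the mutants lie below WT.

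Within the array, MAF2 and MAF3, which end 873 and 780 bp before the next gene, had no call in RNA while MAF4 and MAF5 rose. Of the 18 genes nearest the 3 loci, 11 were tested. None was called in hhp1, 1 was lower in mbd124, 1 was higher and 2 were lower in sant1234-null, and 1 was lower in hda6. The share of all tested genes called in either direction was 6.14%, 11.3%, 15.3% and 12.0%, and counts this small among 11 genes cannot be told from it. IRM1, which lies 3815 bp before the array with AT5G09295 between them, rose in sant1234-null (log2 change 0.64, adjusted p = 0.00647 in the authors' deposited table). UFC, the gene upstream of FLC, fell by 0.80 in mbd124, 0.51 in sant1234-null and 0.76 in hda6 on the log2 scale, and DFC, downstream of FLC, fell by 0.47 in sant1234-null. FLC thus rose in 3 mutants in which its upstream neighbour fell. H3ac past the end of the array differed from gene to gene. Over IP5P5, the gene after MAF5, it was 1.73 times WT in sant1234-null and 1.80 times in hda6, against 1.65 and 1.56 times over MAF5 itself. No H3ac peak overlapped IP5P5. Over EIL5, the next gene, H3ac was 25.7 RPKM in sant1234-null and 16.8 RPKM in hda6 against 10.7 in WT. Neither IP5P5 nor EIL5 was called in RNA in these mutants, where EIL5 was not tested. Over ACX2, the gene after EIL5, H3ac was below WT, at 0.820 times in sant1234-null and 0.832 times in hda6. Of the transposable elements, AT5TE93510 overlaps the start of MAF2 and AT5TE93580 lies in MAF5, and both are listed at 0 in every table.

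Known regulators of FLC were not called at the RNA level. The lists held 10 autonomous pathway genes, 18 activators and 13 Polycomb or vernalization genes, and of these 40 were tested in each table. The autonomous pathway genes include HDA6 itself, whose RNA was not called in the hda6 line. A missing call thus does not show that a regulator is intact. None was called in any mutant by the authors' test, against 6.14% of all tested genes in hhp1, 11.3% in mbd124, 15.3% in sant1234-null and 12.0% in hda6. At an unadjusted p under 0.05 there were 2 in hhp1, 1 in mbd124, 0 in sant1234-null and 0 in hda6. Log2 changes over the 40 genes ran from -0.31 to 0.26 in hhp1, -0.38 to 0.37 in mbd124, -0.29 to 0.32 in sant1234-null and -0.25 to 0.28 in hda6. VIN3, the cold-induced Polycomb partner, was not tested, at 0.0304 FPKM in WT.

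Partners and targets of the clade were called only in the lower direction. Of 9 tested genes among 11, 0 were called in hhp1, 2 were lower in mbd124, 4 lower in sant1234-null and 4 lower in hda6, where 3.26%, 6.42%, 5.93% and 4.79% of all genes were lower. SOC1, the flowering activator that FLC represses, fell from 28.7 to 19.9 FPKM in sant1234-null and from 28.1 to 14.2 FPKM in hda6, where the authors' deposited table gave adjusted p-values of 0.00736 and 0.000899. SVP, the partner of the clade, fell by 0.44 and 0.52 on the log2 scale in these mutants (adjusted p = 0.0400 and 0.0211 in the authors' deposited table).

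FUL, a MADS-box gene that promotes the floral transition, fell by 1.03 in mbd124, 1.02 in sant1234-null and 1.49 in hda6 on the log2 scale. TEM1, a repressor of FT, fell by 2.17, 1.65 and 0.73 in the same order. FT, the florigen gene, was at 0.717 FPKM in hhp1, 1.36 in mbd124, 0.679 in sant1234-null and 0.608 in hda6, against 0.978 to 0.999 in WT, and was not called in any of them. H3ac over these genes did not follow one direction. Over SOC1, whose RNA fell, it was 2.61 RPKM in sant1234-null and 2.55 RPKM in hda6 against 0.993 in WT. The ratios of 2.63 and 2.57 thus rest on little signal, far under the median gene at 10.7 RPKM in WT. Over FUL, whose RNA also fell, it was 4.47 and 4.58 RPKM in these mutants against 2.98 in WT. Over TEM1, again with lower RNA, it was 57.8 and 61.7 RPKM against 82.6 in WT. It was 0.999 and 1.08 times WT over SVP, and 1.38 and 1.68 times over FT, which stood at 2.145 RPKM in WT.

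The other MIKC-type MADS-box genes, relatives with the same domain plan, numbered 32, of which 17 or 18 were tested and 5 were shared with the list of partners and targets. There was 1 higher and 0 lower in hhp1, 0 and 1 in mbd124, 2 and 3 in sant1234-null and 1 and 5 in hda6. Among all tested genes the shares called higher and lower were 2.88% and 3.26% in hhp1, 4.85% and 6.42% in mbd124, 9.33% and 5.93% in sant1234-null and 7.25% and 4.79% in hda6. PISTILLATA (PI), a petal and stamen identity gene, rose by a log2 change of 1.56 in hhp1 and 2.47 in sant1234-null from 0.566 and 0.567 FPKM. AGL21, a root-expressed gene, rose by 0.75 in sant1234-null, and AGL17 rose by 1.14 in hda6. SEP3 and SEP4, floral cofactors, fell by 0.74 and 0.99 in hda6, beside SVP, SOC1 and FUL.

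The genes whose 4 log2 changes lay nearest to those of FLC, by Euclidean distance among 20674 genes, were the glutathione transferase gene GSTF6 (distance 0.270), the stress-induced gene LTI65 (0.361) and EDA39 (0.381). Nearest to MAF4 were the pyruvate decarboxylase gene PDC4 (0.573), AT1G13540 (0.652) and AT3G47040 (0.680), and nearest to MAF5 were AT5G60250 (0.319), the ribosomal P2 protein gene RPP2C (0.573) and AT1G29600 (0.762). MAF4 and MAF5 were not among each other's nearest 3. These distances rest on 4 comparisons that share the WT libraries.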

How the data were processed

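Build TAIR10 and the tools below are named, without roles, per the submitters' processing notes: TopHat2 2.0.12, Cuffdiff and Cufflinks 2.2.1, beside MACS2 2.1.1.20160309, Bowtie2 2.4.1 and DiffBind, next to bedtools and CASAVA. The deposited RNA tables give 1 FPKM per genotype, scaled between the 2 genotypes of a table. The deposited tables also hold a p-value, a q-value (Benjamini-Hochberg over tested genes, checked) and a score, which is the statistic from which the authors took p. The deposited H3ac gene tables give a read count and an RPKM per genotype with no input subtracted. The deposited peak tables give log2 concentrations, a log2 fold and an FDR, per the file headers. The number of per-sample columns left unused was 0.

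Calls used an adjusted p or FDR under 0.05. Log2 changes came from FPKM without a pseudocount. Standard errors came from the change and the statistic, scaled to the deposited p-values (1.74). This scale is a median over many genes, so the derived error of a single gene can be too small or too large. Differences between mutants used a two-sided normal test with summed variances, which count the shared WT spread in both. Peak overlap needed 1 bp. Whether the derived standard errors match the spread between replicates was not tested. Scripts ran in Python 3.11.15 with pandas 2.3.3 and scipy 1.17.1.

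Members and gene lists were chosen with earlier results of these data known. Named genes were the 6 members, called genes of the lists, 3 genes on either side of each locus, and the 3 nearest in pattern to each member called in RNA. Replicates are biological per the series' design text. Tables hold no value per library, and depth is known for H3ac only.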

Additional observations from a re-analysis of the deposited data

How the results depend on the processing

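Of 33 alternative values for the 9 counts of calls, 26 stayed within 1.5 times the reported count and 7 fell below that range. At an adjusted p under 0.01 the count in hhp1 was 0, so the FLC call there was lost, while the counts of the other mutants kept within 1.5 times. For H3ac reads, a limit of at least 2-fold left 0 genes in sant1234-null and 0 in hda6, and in hda6 RPKM + 1 and centring on the median of all genes each left 1. Centring the hda6 peak folds on the median of all peaks left 2 calls in place of 4, with derived errors that can be too small. Standard errors from p alone left 3 differences between mutants in place of 7: MAF4 between hhp1 and sant1234-null and between hhp1 and hda6, and MAF5 between mbd124 and sant1234-null, because the deposited p-values have a smallest value. With the shared WT variance removed, the MAF5 difference between hhp1 and hda6 was called as well. Of 48 alternative values for single genes, 42 stayed within the derived standard error of the reported change and 6 moved further. All 6 came with FPKM + 1, which understates changes of genes with few reads. FLC moved to 0.74, 0.90, 1.27 and 1.35 in hhp1, mbd124, sant1234-null and hda6. MAF4 moved to 2.27 and 2.17 in sant1234-null and hda6.

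No paired analysis was possible because the tables hold 1 value per genotype, and leaving out a replicate was not possible for the same reason. RNA depth is unknown.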
